A study of Mus musculus with 24 samples.

Results

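The regions described here were open chromatin in epidermal stem cells (EpdSCs) of mouse back skin at every time measured and had no called peak in any culture of the same kind of cell. They were chosen from measured peak calls: the peaks of all 12 lists on chromosomes 1 to 19 and X were merged when they overlapped by at least 1 bp, and a merged region became a member when all 5 skin lists and none of the 7 culture lists had a peak in it. 5911 of 134312 merged regions met this rule, which is 4.40% of all regions and 16.3% of the 36375 regions present in all 5 skin lists. Because the peak calls made the choice, presence in skin and absence in culture are the definition of these regions and not a result.

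ATAC-seq, which uses Tn5 transposase to cut and tag open chromatin, had been run on 24 samples forming 12 groups of 2 replicates, all from male CD1 mice. The skin cells had the genotype K14rtTA; TRE-myc-Sox9, in which the keratin 14 promoter, active in basal keratinocytes, drives a transactivator that turns on myc-tagged SOX9 when doxycycline (DOX) is given. DOX started at postnatal day 21. The skin groups were D0 at day 21, W1 at day 28, W2 at day 35, W6 at day 63 and W12, for which neonatal skin had been grafted onto Nude hosts. EpdSCs were sorted as cells without CD31, CD45, CD117 and CD140a, high in CD49f, without CD34 and high in Ly6A, and several mice were pooled in each replicate. The culture groups were keratinocytes from newborn back skin, grown in low-calcium medium, and carried K14rtTA with one of the following: TRE-myc-Sox9 without DOX (noDOX) or with DOX (WT-SOX9), TRE-myc-Sox9noHMG (SOX9 lacking its DNA-binding HMG box), TRE-myc-Sox9noTA (SOX9 lacking its transactivation domain), TRE-FLAG-AFOS (AFOS is a FOS mutant that blocks AP1 binding), TRE-myc-Sox9 with TRE-FLAG-AFOS, and TRE-myc-Sox9 with TRE-ARID1a (a subunit of the SWI/SNF remodelling complex). DOX was used at 1 µg/ml in culture, for 3 days in the first replicate of WT-SOX9, Sox9noHMG and Sox9noTA by the labels, and whether the other DOX cultures had the same time is not stated there. Per the study's methods lentivirus with puromycin selection carried WT-SOX9, Sox9noHMG and Sox9noTA into K14rtTA cells, and AFOS or ARID1a into K14rtTA cells or into cells that already held TRE-myc-Sox9. Since skin cells were postnatal or grafted and cultures came from newborn pups, residence in skin cannot be told apart from age, calcium or passage in culture.

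Basal EpdSCs in skin rest on a basement membrane, receive signals from dermis, nerves and immune cells, and divide slowly, while keratinocytes in low-calcium medium are kept undifferentiated and proliferating. Enhancers, which usually lie far from gene starts, carry most of the chromatin that differs between cell states, and promoters of broadly used genes are open in nearly all cells. NFI proteins are chromatin-opening factors of skin stem cells, GATA3 maintains epidermal identity and barrier, and AP1, a dimer of FOS and JUN proteins, binds many epidermal enhancers and responds to growth factors and stress.

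The DNA of 7 members, each more than 1 kb from any transcription start site (TSS), is printed as the central 200 bp on the + strand of GRCm38, with letters in capitals where they match the consensus of NFI, GATA, AP1, FOX, RUNX, TEAD, SOX or a TAAT homeobox site on either strand. Those with matches show the letters counted in the motif results, and those of Smoc2 and Gata3 show that strong members also occur without any of these letters. The windows lie at chr14:78351750-78351949 (upstream of Tnfsf11, intergenic), chr16:76337053-76337252 (an intron, with Nrip1 the nearest coding gene), chr7:49457389-49457588 (an intron, with Dbx1 the nearest coding gene), chr1:119015210-119015409 (intron of Gli2), chr9:31689876-31690075 (downstream of Barx2, intergenic), chr17:14287907-14288106 (intron of Smoc2) and chr2:9827744-9827943 (downstream of Gata3, intergenic). The Tnfsf11 window has an AP1 match at base 23, GATA at 72, TAAT at 92 and NFI at 115. The Nrip1 window has NFI at base 86 and GATA at 129, the Gli2 window FOX at 62, NFI at 92 and TAAT at 151, the Dbx1 window NFI at 102 and the Barx2 window NFI at 148.
Tnfsf11: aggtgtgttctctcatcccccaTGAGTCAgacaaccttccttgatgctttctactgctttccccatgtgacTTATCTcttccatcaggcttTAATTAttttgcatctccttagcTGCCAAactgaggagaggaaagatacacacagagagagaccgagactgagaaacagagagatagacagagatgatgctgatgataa
Nrip1: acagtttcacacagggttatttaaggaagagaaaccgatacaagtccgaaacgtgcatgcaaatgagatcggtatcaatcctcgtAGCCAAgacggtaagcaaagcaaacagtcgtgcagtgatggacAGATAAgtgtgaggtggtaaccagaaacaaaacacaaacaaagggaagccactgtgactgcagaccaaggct
Dbx1: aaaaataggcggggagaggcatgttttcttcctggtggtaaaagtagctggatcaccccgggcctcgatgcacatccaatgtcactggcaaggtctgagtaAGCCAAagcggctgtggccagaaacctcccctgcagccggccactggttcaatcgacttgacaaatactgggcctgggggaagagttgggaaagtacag
Gli2: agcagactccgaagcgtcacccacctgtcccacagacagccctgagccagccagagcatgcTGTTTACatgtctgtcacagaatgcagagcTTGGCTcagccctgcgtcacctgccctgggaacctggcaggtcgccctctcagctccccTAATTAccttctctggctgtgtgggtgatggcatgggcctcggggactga
Barx2: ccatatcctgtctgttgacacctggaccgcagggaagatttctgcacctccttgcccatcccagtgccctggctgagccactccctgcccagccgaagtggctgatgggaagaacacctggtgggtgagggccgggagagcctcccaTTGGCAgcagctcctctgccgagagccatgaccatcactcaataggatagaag
Smoc2: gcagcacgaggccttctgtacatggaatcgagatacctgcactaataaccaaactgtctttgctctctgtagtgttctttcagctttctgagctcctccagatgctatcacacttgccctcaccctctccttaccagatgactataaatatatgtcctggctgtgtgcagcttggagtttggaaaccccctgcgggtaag
Gata3: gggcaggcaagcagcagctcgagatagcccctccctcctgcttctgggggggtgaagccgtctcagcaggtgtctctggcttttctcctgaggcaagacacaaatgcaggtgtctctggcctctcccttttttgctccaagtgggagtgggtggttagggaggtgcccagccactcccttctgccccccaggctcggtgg

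Each list was made by the authors from the merged reads of both replicates, so it is 1 measurement per group and no difference here could be set against a spread between replicates. The lists held 49458 to 75909 peaks, and read depth is not given in the sources used here. The values are the authors' normalized peak scores, summed over the peaks of a list within a region. A region with several peaks in a list thus scores higher than its highest peak. Peaks below a floor of 3 had been removed, and a low score in a sorted population cannot tell fewer open cells from less open chromatin per cell. Promoter peaks were present in every skin list for at least 11 of the 12 basal epidermal marker genes, which include Krt5 and Krt14. The W1 list had no peak over the last exon of Sox9 (chr11:112784672-112787760), which each of the other 4 skin lists had, and in the AFOS list the regions lost against noDOX carried an AP1 match less often (20.8%) than those kept (28.6%), whereas for SOX9 with AFOS the shares were 36.9% and 19.8%. Without the W1 list 7093 regions would be members, without the AFOS list 6012 and without the list of SOX9 with AFOS 6451.

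The constant skin regions fell mostly at the ends of the culture scale. Of the 36375, 18947 had a peak in all 7 culture lists and are called shared regions from here on, 5911 had none, and each step from 1 to 6 culture lists held between 1463 and 3207. Of the 1715 that had a peak in a single culture list, 532 had it in SOX9 with AFOS, 282 in noDOX and 89 in Sox9noHMG. A further 3313 regions missed membership by 1 skin list, and for 1091 of these the absent list was W1, against 315 for D0. In the opposite direction, 1319 regions had a peak in all 7 culture lists and in no skin list, and these are called culture-only regions.

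**Figure D1:**
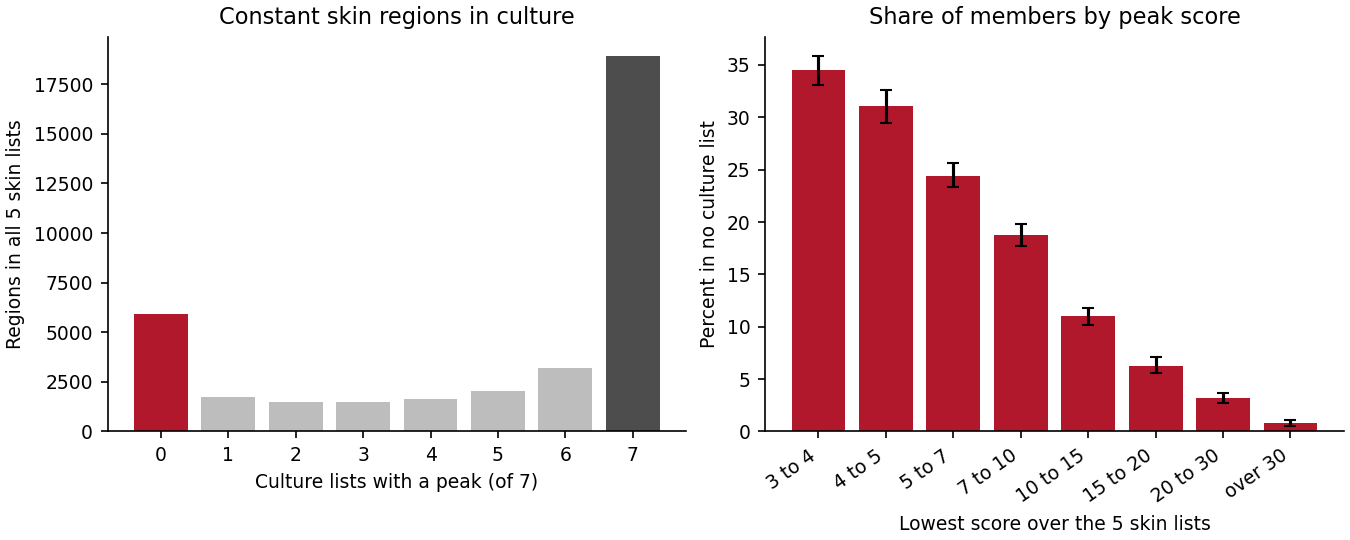
Left, number of regions present in all 5 skin lists by the number of culture lists that also had a peak, with members in red (5911) and shared regions in dark grey (18947). Right, percentage of constant skin regions that were members in bands of the lowest score over the 5 skin lists, with 95% Wilson intervals, falling from 34.5% to 0.787%.

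Members had lower scores than shared regions, which is described here because scores and peak calls are the same measurement. The median score of members was 10.9, 10.5, 10.6, 8.95 and 8.41 in the D0, W1, W2, W6 and W12 lists, and that of the shared regions was between 21.8 and 26.6. These scores are sums over peaks, and the shared regions were wider. For the highest-scoring peak alone, the median fold enrichment at D0 was 9.27 in members and 11.7 in shared regions. Among constant skin regions whose lowest score was 3 to 4, 34.5% were members (95% Wilson interval 33.1 to 35.9, counting error only, as for all intervals here), and among those whose lowest score was over 30 the share was 0.787% (0.558 to 1.11), or 32 of 4068. 1576 of the 5911 members had a lowest score between 3 and 4. The lowest score of a member came from W12 in 1666 cases, from W6 in 1522, from W1 in 1297, from W2 in 809 and from D0 in 617.

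**Figure D2:**
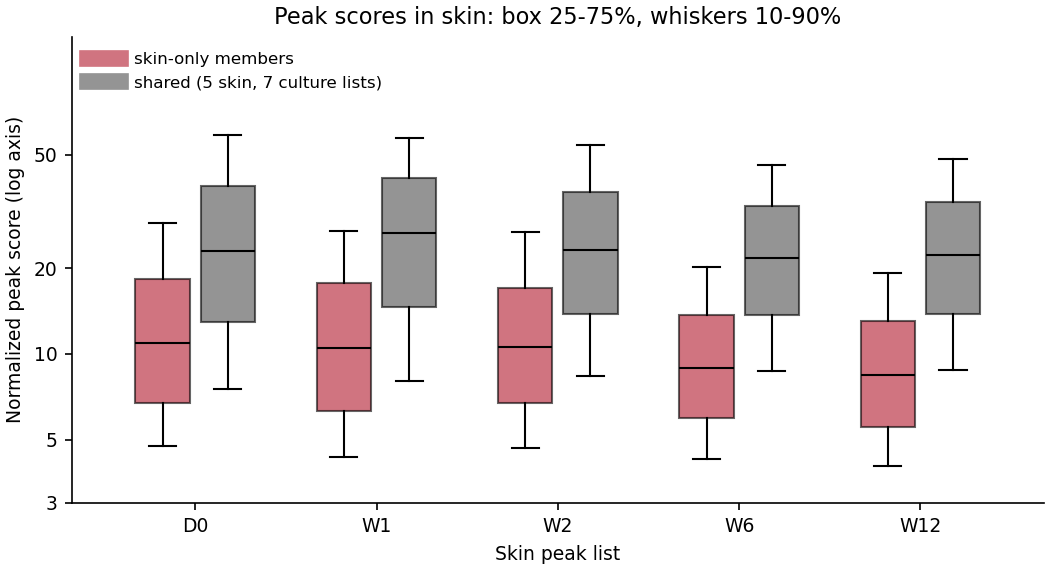
Normalized peak score (log axis), summed over the peaks of a region, in each skin list for the 5911 members and the 18947 shared regions, with boxes for the middle of the distribution (25th to 75th percentile), a line at the median and whiskers at the 10th and 90th percentiles. The member medians lie between 8.41 and 10.9, below the 25th percentile of the shared regions in every list.

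The values near the limits of the rule show how the choice was made at the margin. The members with the lowest values were 3 regions whose W12 score was 3.0033, 3.0039 and 3.0039, lying downstream of the TSS of Lhx2, a follicle stem cell factor (chr2:38380451-38381034), of Gli3, a Hedgehog effector (chr13:15522005-15522556) and of Cwc22, a splicing protein (chr2:77907925-77908775). The first of these had scored 10.19 at D0, and the Gli3 region 6.51. Just outside were a region 1720 bp from the TSS of the Notch target Hes1, which had a noDOX peak of score 3.0008, one 1276 bp from Esrp2, an epithelial splicing regulator, with 3.0024 in SOX9 with AFOS, and one near Dnttip2 with 3.0042 in the same list. Culture peaks were often close by: the nearest lay at a median of 4983 bp, and 438 members (7.41%) had one within 500 bp.

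The 12 members with the highest minimum over the skin lists kept a score of about 35 or more in each of them. Scores of single members are given from here on in the order D0, W1, W2, W6, W12. The first lay in an intron of Smoc2, a secreted matrix protein (chr17:14287402-14288612), and scored 78.3, 56.0, 71.2, 47.7 and 52.0. An intronic region of Mfap3l (chr8:60639863-60640721) scored 64.3, 55.2, 52.1, 47.3 and 43.7. An intronic region 20481 bp upstream of a TSS of Pik3r1, the regulatory subunit of PI3 kinase (chr13:101712649-101713572), scored 55.7, 40.7, 63.7, 63.2 and 60.7. Smoc2 and Mfap3l thus had their highest value at D0, and at Pik3r1 the lowest list was W1. A region 43807 bp upstream of Tnfsf11, which encodes the cytokine RANKL (chr14:78351410-78352289), scored 65.2, 68.0, 50.8, 37.9 and 48.1. The region assigned to Neurod1, a neuronal and endocrine factor whose TSS is 71877 bp away (chr2:79528213-79529043), scored 64.8, 35.3, 97.0, 44.5 and 45.2. That assigned to Agr3, an endoplasmic reticulum disulfide isomerase 155286 bp away (chr12:35769589-35771079), scored 47.9, 47.2, 119, 35.4 and 36.0. Both scores were highest at W2, while by fold enrichment the Neurod1 region was 18 at D0 and 13 at W2 and the Agr3 region 13.2 and 14.9. The scores sum all peaks of a list in the region, and the fold enrichment is that of the highest-scoring peak alone. The others among the 12 were distal regions assigned to Extl1 (heparan sulphate synthesis), Cachd1, Piwil1 (a germline Piwi protein) and Sptssa (a subunit of serine palmitoyltransferase), and the promoters of 6430531B16Rik and Derl3.

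Members lay at promoters about as often as merged regions in general and less often than shared regions. Their centre lay within 1 kb of a TSS in 849 cases, or 14.4% (13.5 to 15.3), against 51.1% (50.4 to 51.8) of shared regions, 6.82% (5.58 to 8.31) of culture-only regions and 14.2% of all merged regions. The constant skin regions with a peak in 1 to 6 culture lists were nearer to the members, with 18.3% within 1 kb, a median TSS distance of 9970 bp, a median width of 770 bp and a GC content of 48.9%. The median distance to a TSS was 12480 bp for members and 747 bp for shared regions, and 14.2% of members but 4.42% of shared regions lay beyond 50 kb. By the annotation, 47.3% of members were intronic, 41.7% intergenic, 4.92% in a UTR and 3.74% in a coding exon, while UTRs took 17.9% of the shared regions. Members were also narrower, with a median of 684 bp against 1087 bp, and poorer in G and C, with 48.2% against 53.8%.

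The promoter share of members did not follow peak strength. It was 14% (12.3 to 15.8) where the lowest score was 3 to 4, 14.8% (12.3 to 17.8) where it was 10 to 15 and 14.4% (9.51 to 21.2) where it was 20 to 30. In shared regions of the same bands it climbed from 19.1% to 48.8% and 61.0%. Where the lowest score was 4 to 5 the shares were 14.9% (12.8 to 17.2) and 19.4% (16.7 to 22.4), with overlapping intervals, and from 5 upward the gap widened. Across chromosomes the members' share of constant skin regions ran from 11.9% (10.2 to 13.9) on chromosome 19 to 23.1% (21.2 to 25.2) on chromosome 13.

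Among the promoter members, the one with the highest minimum lay 17 bp from the TSS of 6430531B16Rik (chr7:139978297-139979106, UTR) and scored 60.4, 50.9, 40.4, 53.2 and 46.2. The promoter of Derl3, which acts in degradation of misfolded endoplasmic reticulum proteins (chr10:75892921-75893677), scored 48.8, 64.1, 46.4, 38.2 and 40.7. The promoter of Dync2h1, the dynein motor of intraflagellar transport (chr9:7176474-7177338), scored 34.3, 32.1, 28.7, 32.7 and 29.8. The first of these was highest at D0 and Derl3 at W1, and Dync2h1 varied least. That of Zscan18, a zinc finger gene (chr7:12803052-12803973), scored 40.4, 37.9, 35.9, 27.4 and 29.8. The remaining promoter members named by the rule sat at noncoding genes: Gm36979, 72435 bp from the coding gene Thbs1 (chr2:118038794-118040088), with 97.7, 57.3, 80.9, 34.0 and 38.9, and Gm28340, 29695 bp from Tfap2b, an AP2 transcription factor (chr1:19241248-19242250), with 60.3, 42.3, 42.5, 31.6 and 31.2. Both of these were highest at D0.

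The sequences of members differed from those of shared regions, and sequence played no part in the choice. A match was counted when the consensus letters occurred on either strand of the central 200 bp, and since promoters and enhancers differ in base composition the shares are given for regions more than 1 kb from a TSS, 5062 members, 9258 shared and 1229 culture-only regions. The NFI motif (TTGGCA or TTGGCT, a single arm of the factor's palindrome) occurred in 40.6% (39.2 to 41.9) of members, 27.8% (26.9 to 28.7) of shared regions, 20.4% of culture-only regions and 29.0% of all 115196 distal regions. The GATA motif, searched as AGATAA, occurred in 707 members, or 14% (13.0 to 14.9), 9% (8.43 to 9.60) of shared, 9.60% of culture-only and 11.8% of all distal regions. AP1 (TGAGTCA or TGACTCA) went the other way, with 708 members, or 14% (13.1 to 15), 23.2% (22.4 to 24.1) of shared, 22.0% of culture-only and 21.4% of all distal regions. Members thus had more NFI and GATA letters and fewer AP1 letters than every set beside them, with intervals that did not overlap those of the shared regions. A match is a run of letters and says nothing of which protein was bound.

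Less frequent motifs differed in both directions. More often matched in members than in shared regions were the TAAT homeobox site (TAATTA, 6.10% against 3.41%, 4.46% of all), the FOX site (TGTTTAC, 4.17% against 2.40%, 3.06% of all), the D-box of PAR bZIP factors (TTACGTAA or TTATGTAA, 1.68% against 0.756%, 1.06% of all), the STAT site (TTCCNGGAA, 1.28% against 0.713%, 0.953% of all) and the NFY box (CCAATCA or CCAATGA, 5.47% against 4.26%, 4.70% of all). Less often matched were TEAD (ACATTCC, 3% against 5.47%, 5.72% of all), RUNX (TGTGGT, 13.2% against 15.9%, 17.6% of all), the CTCF consensus (0.593% against 2.88%, 2.04% of all), ETS (CAGGAAGT or CCGGAAGT, 2.17% against 2.96%, 2.64% of all) and the AGGTCA nuclear receptor site (10.2% against 12.2%, 12.6% of all). Culture-only regions were at the far end for RUNX, with 24.8%, and for TEAD, with 13.1%. The SOX site (ACAATAG or ACAATGG), that of the induced factor itself, was in 4.27% of members, 3.48% of shared regions and 6.58% of all distal regions. The remaining motifs had intervals that overlapped between members and shared regions: the p63 motif (3.28% and 2.89%, 2.94% of all distal regions), IRF (2.15% and 2.08%, 2.07%), the E-box CACGTG (4.60% and 3.78%, 3.28%), TCF/LEF (CTTTGAA or CTTTGAT, 7.84% and 6.68%, 7.55%), C/EBP (TTGCACAA, TTGCATCA or TTGCGCAA, 2.13% and 2.02%, 2.16%), NFkB (2.39% and 1.92%, 2.20%), GRHL (1.52% and 1.71%, 1.34%) and TBX (AGGTGTGA, 1.46% and 1.23%, 1.39%). The CRE (TGACGCAA or TGACGTCA), the NRF1 and glucocorticoid receptor consensus and the full NFI palindrome were each in under 1% of members.

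**Figure D3:**
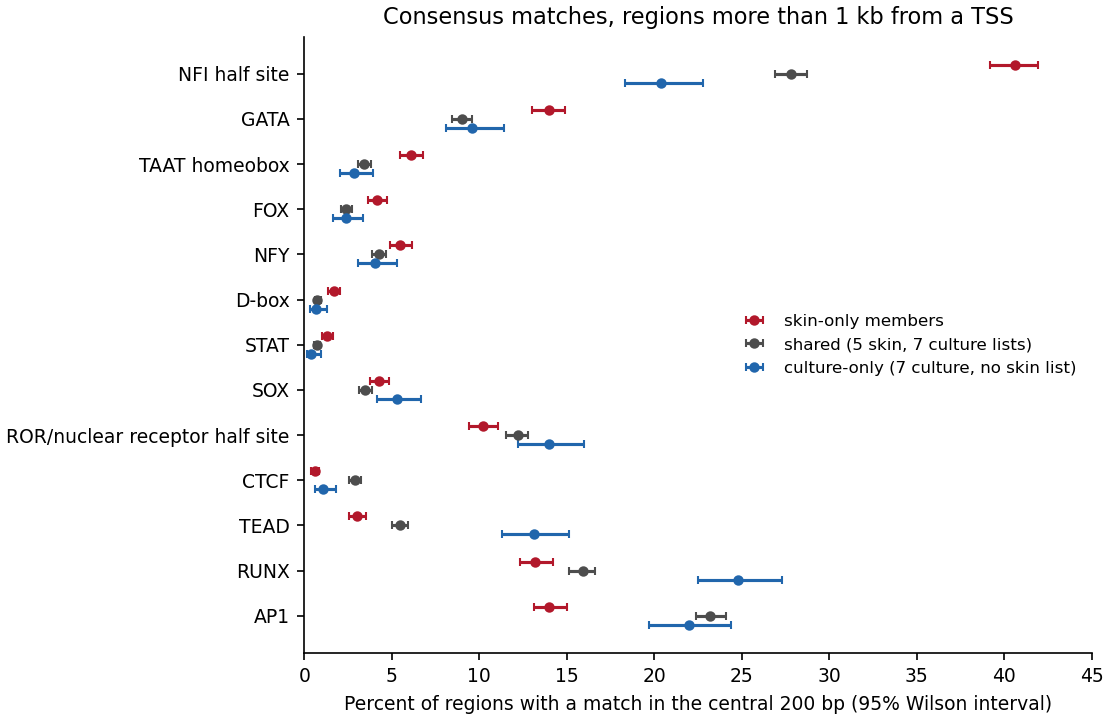
Percentage of regions more than 1 kb from a TSS with a consensus match in their central 200 bp, for members (red, n = 5062), shared regions (grey, n = 9258) and culture-only regions (blue, n = 1229), with 95% Wilson intervals. NFI stands at 40.6% in members against 27.8% and 20.4%, and AP1 at 14% against 23.2% and 22.0%.

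The choice of window mattered for NFI. Over whole regions 73.3% of members and 73.0% of shared regions had the NFI motif, at a median width of 684 against 1087 bp, so the share of regions with a match was nearly the same. Per kilobase of distal region the NFI motif occurred 2.05 times in members and 1.51 times in shared regions, GATA 0.731 and 0.523 times, and AP1 0.419 and 0.730 times. Around the mean summit of the skin peaks the difference was local: within 60 bp the NFI motif occurred 3.09 times per kb in members and 1.89 in shared regions, and 300 to 500 bp away 1.35 and 1.26 times. AP1 rose toward the summit in both sets, from 0.162 to 1.06 per kb in members and from 0.217 to 2.39 in shared regions. GATA was 0.807 per kb at the summit and 0.646 at the flank in members, and 0.461 and 0.570 in shared regions. The NFI letters were thus more concentrated at the summit of members (2.29 times the flank) than of shared regions (1.5 times).

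Motif shares also changed step by step with the number of culture lists that had a peak. From 0 to 7 culture lists the NFI motif occurred in 40.6, 39.3, 35.1, 34.6, 32.6, 30.7, 28.9 and 27.8% of distal constant skin regions. GATA went from 14% over 12.8, 12.2, 11.9, 11.4, 11.5 and 10.2 to 9%. AP1 went from 14% over 14.8, 17.4, 16.6, 19.8, 21.6 and 23.9 to 23.2%. NFI decreased at each step, and GATA and AP1 each had a step or more against the trend that was smaller than the intervals. Members stood close to the regions found in 1 culture list for AP1 (14% against 14.8%) and for NFI (40.6% against 39.3%).

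**Figure D4:**
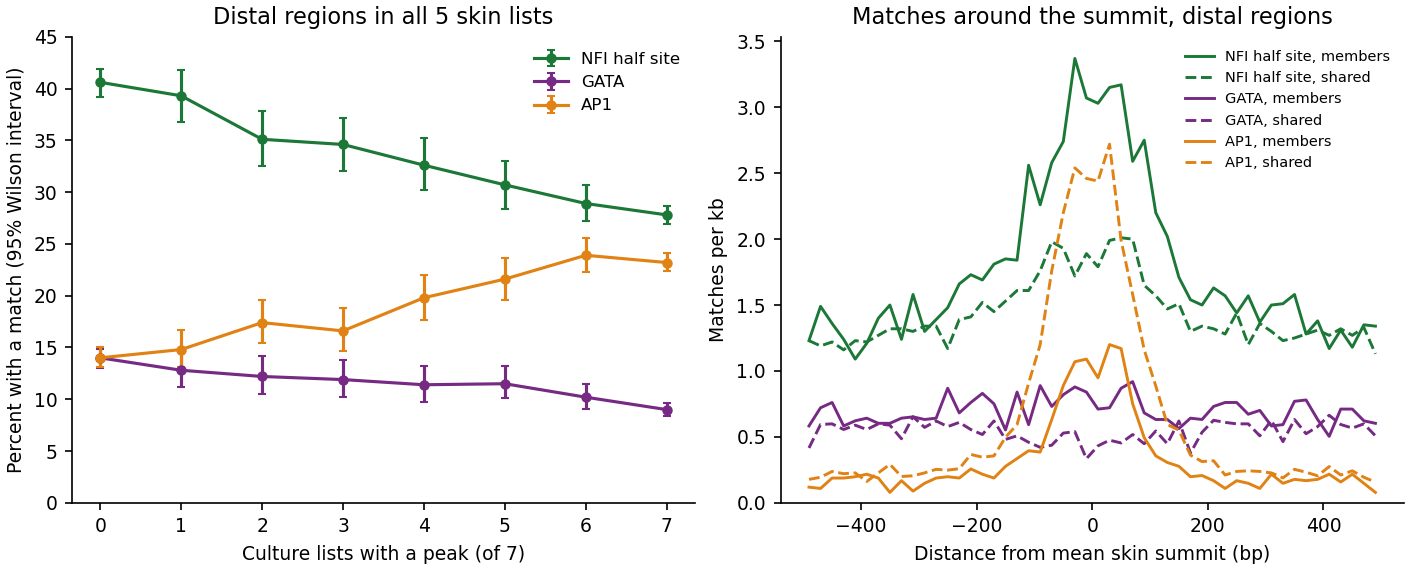
Left, percentage of distal constant skin regions with an NFI motif, GATA or AP1 match by the number of culture lists with a peak, with 95% Wilson intervals (members at 0, shared regions at 7). Right, matches per kb in 20-bp bins around the mean skin summit for distal members (solid) and shared regions (dashed), where the NFI motif near the summit stands higher in members and AP1 higher in shared regions.

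The NFI share of members was much the same at all strengths. It was 38.9% (36.4 to 41.6) of distal members whose lowest score was 3 to 4, 42.7% (39.8 to 45.7) at 5 to 7, 41.3% (37.2 to 45.5) at 10 to 15 and 47.1% (38.3 to 56.0) at 20 to 30. In shared regions it was 24.6%, 24.5%, 28.6% and 30.6% in those bands. At 15 to 20 it was 36.8% (30.5 to 43.7) of members and 29.5% (27.0 to 32.2) of shared regions, with overlapping intervals. In the strongest band, over 30, only 28 distal members were left, of which 28.6% (15.3 to 47.1) had the NFI motif, and the shared regions had 32.7%, also with overlapping intervals. The difference itself was not tested in either of these bands. At promoters within 1 kb, the NFI motif was found in 27.0% of the 849 members and in 17.5% of the 9689 shared regions, while the GC-rich KLF/SP sites (CCACACCC, CCCCGCCC or CCGCCCC) were found in 27.1% and 33.9%. Over all 19116 promoter regions the shares were 21.3% and 26.7%. AP1 had the opposite direction to that of distal regions there, with 5.89% (4.50 to 7.68) of promoter members, 3.03% (2.71 to 3.39) of promoter shared regions and 7.21% of all promoter regions.

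Although open throughout, members changed score at W2 and W6 more often than shared regions, at W6 mostly downward. In the W1, W2, W6 and W12 lists the median log2 ratio to D0 was -0.09, -0.06, -0.25 and -0.38 in members, and 0.10, -0.04, -0.13 and -0.11 in shared regions. At W1, 4.16% of members were at least 2-fold higher and 7.73% at least 2-fold lower than at D0, and of shared regions 7.53% and 3.87%. At W6 the score was at least 2-fold lower than at D0 in 1421 members, or 24.0% (23.0 to 25.1), against 6.21% of shared regions and 11.9% of all constant skin regions. It was at least 2-fold higher in 557 members (9.42%), against 6.49% of shared regions and 8.89% of all constant skin regions. Regions with a peak in 1 to 6 culture lists were lower in 15% and higher in 12.6% at W6. At W2, 733 members (12.4%) were higher and 853 (14.4%) lower, against 6.53% and 3.56% of shared regions. At W12, 1331 members (22.5%) were at least 2-fold lower, beside 8.78% of all, and 279 (4.72%) at least 2-fold higher, beside 6.49% of all. Each list pools its replicates, W12 came from grafts, and the members' own choice required a peak in each list, so these are descriptions of 5 lists with no test.

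Members had the larger share of falling regions in each band of mean score. In the band of mean skin scores from 18 to 30, chosen after the data were seen, 39.6% (36.3 to 43.0) of 826 members and 6.23% (5.64 to 6.89) of 5744 shared regions were at least 2-fold lower at W6. Between 9 and 12 the shares were 26.1% and 6.86%, and under 6, where a fall soon meets the floor of 3, they were 4.84% and 1.84%. Leaving the normalized score for the fold enrichment over local background of the peak caller, the median log2 ratio of members at W6 was -0.41. The median fold enrichment itself in D0, W1, W2, W6 and W12 was 9.27, 7.70, 7.41, 6.82 and 7.01 in members, 11.7, 10.4, 10.1, 9.45 and 9.93 in shared regions, and 10.5, 9.13, 8.93, 8.39 and 8.76 in all constant skin regions, so on this measure all sets were lower than at D0 from W1 on. All sets were slightly higher at W12 than at W6 on this measure, whereas the median score of members was lowest at W12.

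The members with the largest falls were among the stronger peaks at D0 and scored under 5 at W6. A region assigned to Nrip1, a nuclear receptor corepressor 35896 bp away (chr16:76336787-76337518), scored 56.9, 39.8, 24.9, 3.98 and 4.92, a log2 ratio of -3.84 at W6. One assigned to the sorting nexin Snx7, 167818 bp upstream of its TSS (chr3:118036341-118037167), scored 64.2, 38.1, 22.1, 4.60 and 9.97. One assigned to Tdrd3, a Tudor domain protein 333874 bp away (chr14:87749786-87751294), scored 59.2, 51.7, 27.7, 4.26 and 14.4. All of these fell at each list from D0 to W6 and scored higher in the grafted W12 cells than at W6.

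The largest rises had scores near the floor before W2. An intronic region of Dab1, a neuronal signalling adaptor of the reelin pathway (chr4:104597493-104598344), scored 4.30, 4.33, 19.6, 32.3 and 33.8. A region assigned to the homeobox gene Dbx1, 179360 bp away (chr7:49457046-49457932), scored 3.07, 3.19, 33.1, 21.5 and 14.8. The promoter of Cpsf4l (chr11:113709422-113710742) scored 3.68, 4.16, 29.4, 25 and 7.69 and held a SOX, a FOX and a STAT match. The D0 and W1 scores of these regions lay together and the W2 scores were several times higher, and the Dab1 region alone kept rising to W12.

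Members that fell and members that rose by W6 differed in their GATA and SOX letters. Of the 1297 distal members at least 2-fold lower at W6, 19.7% (17.7 to 22.0) had a GATA match, of the 3269 that changed less 12.4% (11.3 to 13.5), and of the 496 at least 2-fold higher 9.48% (7.20 to 12.4). The SOX site went the other way, with 2.54% (1.82 to 3.55), 4.53% (3.87 to 5.30) and 7.06% (5.12 to 9.66). The GRHL site (AACCAGTT, AACCGGTT or AACTGGTT), bound by grainyhead-like factors of epithelia, was in 2.70% (1.95 to 3.73), 1.16% (0.848 to 1.59) and 0.806% (0.314 to 2.05). NFI did not separate them, with 42.6%, 39.4% and 43.3%. In shared regions the order was alike for falling and steady regions, with GATA at 14.8%, 8.31% and 8.60% and SOX at 1.70%, 3.41% and 5.70%, so these patterns were not limited to members. At W2, lower, steady and higher members had GATA in 20.7%, 12.6% and 13.8% and SOX in 2.62%, 4.14% and 6.82%. GRHL was then in 2.10% (1.30 to 3.38) of lower and 0.890% (0.409 to 1.93) of higher members, with overlapping intervals.

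Members were spread over many genes. Each was assigned to the protein-coding gene with the nearest TSS, and 3476 of 21728 genes (16.0%) had at least 1, while 50.9% of genes had at least 1 shared region. 2290 genes had a single member, and 165 genes with 5 or more held 1082 members. Along the chromosome, 3404 members had no other member as neighbour among the constant skin regions, and the longest runs without an intervening region that was also open in culture had 10 members. There were 4 such runs, at Wwc1 and Tenm2 (chr11:36243436-36485179), at Pik3r1 and Slc30a5 (chr13:100940738-101420042), at Dab1, C8a, C8b and Oma1 (chr4:103315854-104872517) and at Cxcl12 (chr6:117168088-117379391).

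Gata3, which encodes the GATA factor of the epidermis, was assigned the most members, 21 of the 44 constant skin regions nearest to it, and 4 of the 44 were shared. All lay downstream of its TSS on chromosome 2, between 44794 and 965968 bp away, and 9 of them followed each other at chr2:8912355-9137462 with no culture peak in a constant skin region between them. The one with the highest minimum over the 5 lists, called the leading member here and for other genes (chr2:9827431-9828257, 50756 bp from the TSS, intergenic) scored 33.2, 43.5, 35.2, 30.3 and 37.2, close to level over the course. Another, 325090 bp away (chr2:9553177-9553842), scored 50.5, 58.5, 41.0, 29.6 and 25.9, and the weakest of the 21, at chr2:8974159-8974522, scored 3.06, 6.59, 7.96, 4.96 and 3.30. Of the 21, 6 (28.6%) were at least 2-fold lower and 3 (14.3%) at least 2-fold higher at W6 than at D0. Over all members these shares were 24.0% and 9.42%, and the interval of the 28.6% covers 24.0%. The median log2 ratio was -0.71 for the 21 and -0.25 for all members. Neighbours at Gata3 thus did not keep to a common course, and a mix of falls and rises was also present among members in general. At such distances the assignment to Gata3 rests on its being the nearest coding gene, and no contact was measured.

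Klf5, a proliferation-linked Krüppel-like factor of epithelia, had 14 members of 34 regions with 10 shared. Its leading member (chr14:99583949-99584768, 285205 bp downstream) scored 45.3, 31.4, 45.1, 25 and 21.7, lower in both late lists. Pik3r1 had 15 of 24 with 1 shared, including the region above. Arhgap24, a GTPase-activating protein for Rac, had 12 of 15 and no shared region, and its leading member was a promoter in the UTR, 305 bp from a TSS (chr5:102845011-102845613), with 35.1, 18.5, 22.2, 13.9 and 16.7. Another promoter of Arhgap24, 67 bp from a TSS (chr5:102481102-102481869, UTR), was a member too, with 21, 13.2, 31.7, 28.1 and 14.6. Adgrl2, an adhesion receptor of the latrophilin family, had 12 of 30, and its leading member (chr3:148559673-148560430) scored 19.1, 16.2, 24.2, 18.8 and 15.7. Cxadr, a junctional adhesion protein, had 11 of 17, of which 10 were upstream, and its leading member (chr16:78247870-78248792) scored 29.7, 30.2, 41.6, 28.6 and 32.4. The Arhgap24 promoter named first was highest at D0, whereas the Adgrl2 and Cxadr regions were highest at W2.

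Members at the same gene also moved in different directions elsewhere. At Pik3r1 an intronic member 6208 bp from a TSS (chr13:101686128-101686715) scored 6.12, 3.62, 16.7, 36.4 and 46.2, while a member 68465 bp downstream of a TSS (chr13:101623791-101624539) scored 12.6, 21.3, 3.04, 4.07 and 6.07. At Klf5, a member 34581 bp away (chr14:99263793-99264426) scored 22.2, 22.9, 3.11, 3.40 and 4.04, and one 389177 bp away (chr14:99688007-99688655) scored 3.96, 7.96, 15.5, 13.1 and 6.21. At Adgrl2 a member 10291 bp from a TSS (chr3:148812259-148813116) scored 11.1, 4.09, 70.1, 39.2 and 15.7. From D0 to W6 the first Pik3r1 region, the second Klf5 region and the Adgrl2 region were higher and the others lower. These examples were chosen after their values were seen. Of the 10 members at Klf4, 6 were at least 2-fold lower at W6 and none at least 2-fold higher, and of the 10 at Wwc1 none was lower and 2 were higher. Over all members 24.0% were lower and 9.42% higher, and the interval of the lower share at Wwc1, 0 to 27.8%, covers 24.0%.

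**Figure D5:**
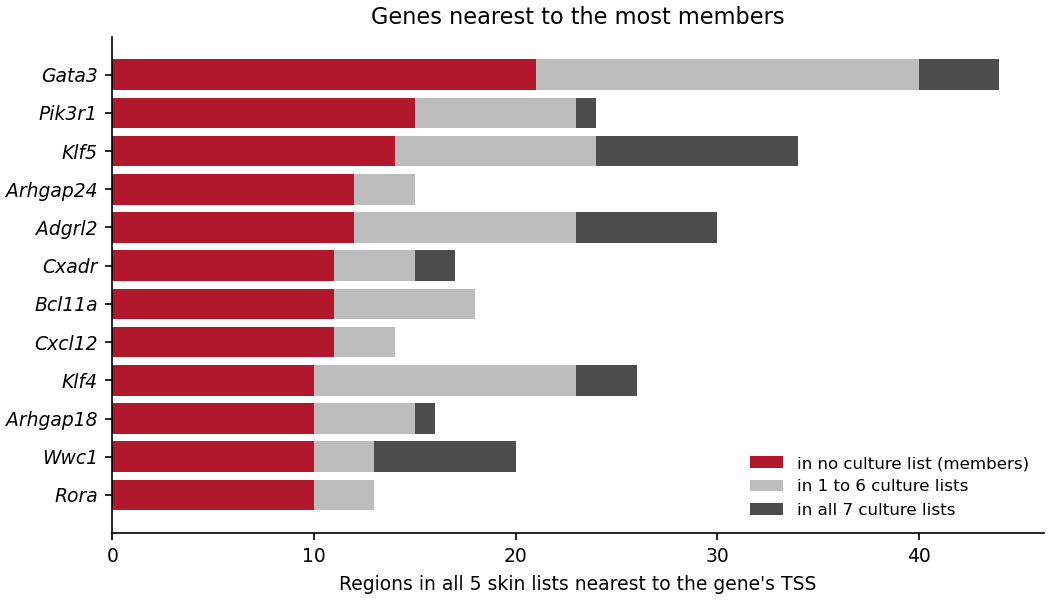
Regions present in all 5 skin lists that lie nearest to the TSS of the 12 genes with the most members, split into members (red), regions in 1 to 6 culture lists (light grey) and shared regions (dark grey). Ties were broken by the sum of lowest scores, and Efnb2, tied at 10 members, is not shown. Gata3 has 21 members of 44 regions, and Arhgap24, Bcl11a, Cxcl12 and Rora have no shared region.

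Gene lists were described by how many of their genes had a member, beside 16.0% of all protein-coding genes. They were also described by the share of members among their constant skin regions, which was 16.3% over all genes. Of 23 epidermal transcription factors 15 had a member, and 81 of their 291 regions (27.8%, 23.0 to 33.2) were members, while 21 of the 23 also had a shared region. Gata3 had 21 of these, Klf5 14, Klf4 10, and Trp63, the master regulator of stratified epithelium, 5. Counted by gene body and 10 kb around it, 9 of the 23 had a member. No share over all genes is given for that way of counting, here or for the lists below. The leading Klf4 member, 342924 bp upstream (chr4:55874901-55875879), scored 73.3, 60.4, 50.5, 27.6 and 36.8. That of Barx2, an epithelial homeobox factor (chr9:31689558-31690393, 223486 bp downstream), scored 41.8, 39.3, 39.2, 29.9 and 32.1, and that of Trp63 (chr16:25944847-25945929) 45.2, 40.6, 47.8, 26.8 and 28. Each of these was lowest at W6, whereas those of Klf5 and Tfap2b, given above, were lowest at W12.

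Other regulator families ranged widely. The RUNX and GATA factors had 28 members of 76 regions, of which 21 were those of Gata3 already counted, and 3 of 7 genes had one. In the SOX family 8 of 14 genes had a member and 32 of 103 regions (31.1%, 22.9 to 40.5) were members. Sox9, the gene induced by transgene here, had 8 of 35, and the leading one, 96050 bp upstream of its TSS (chr11:112685899-112686448), scored 18.4, 13.0, 23.6, 26.8 and 18.8, highest at W6. Nuclear receptors had 13 of 25 genes with a member and 31 of 124 regions (25%, 18.2 to 33.3), with 9 at the thyroid hormone receptor gene Thrb and the promoter of Esrrg (chr1:187997504-187998264, UTR) at 24.1, 17.6, 40.3, 22.2 and 13.2. The HOX genes had 6 of 39 genes and 7 of 24 regions, the clock genes 5 of 19 and 20 of 99, the AP1 subunits 7 of 15 and 20 of 96, and the immediate early and stress genes 12 of 23 and 36 of 180. By gene body and 10 kb around it, genes with a member numbered 1 for RUNX and GATA, 5 for SOX, 10 for HOX, 2 for AP1 subunits and 3 for immediate early and stress genes. Among the clock genes, 10 of the 20 members were at Rora, which had no shared region, and among the immediate early genes 10 of 36 were at Klf4.

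Signalling lists ran from the 16.3% of all genes up to the level of the factor lists. Of 15 Hedgehog pathway genes 8 had a member, and 23 of 76 regions (30.3%, 21.1 to 41.3) were members, 6 each at Gas1 and Boc, co-receptors for Sonic hedgehog. By gene body and 10 kb, 4 Hedgehog genes had a member. The leading member of Gli2, the main activating effector (chr1:119014927-119015693, intron), scored 56.4, 41.7, 31.4, 28.8 and 34.2. That of Gli3 (chr13:15207105-15207990) scored 41.1, 44.5, 36.9, 32.8 and 26.7, and that of Gas1 (chr13:60267272-60268157) 39.3, 22.9, 45.1, 29.3 and 26.8. The Gli2 and Gli3 regions were higher at D0 and W1 than in the 3 later lists, which the Gas1 region was not. The WNT pathway had 18 of 38 genes and 38 of 181 regions, the TGF-beta and BMP pathway 17 of 36 and 47 of 243 (19.3%), the Notch pathway 11 of 27 and 23 of 139 (16.5%), and the EGF receptors and ligands 8 of 18 and 18 of 111 (16.2%). In the WNT list, the member with the highest minimum was at Wnt16 (chr6:22243012-22243986), with 61.9, 34.9, 67.2, 24.2 and 40.7, and all 3 constant skin regions of Lef1, the transcriptional partner of beta-catenin, were members. In the BMP list the leading member of Bmp2 (chr2:133564383-133565409) scored 37.4, 43.4, 26.7, 19.8 and 30.3.

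Lists of adhesion, structure and division had shares below 16.3%, with intervals that cover it. The desmosome and junction list had 20 members of 162 regions (12.3%, 8.14 to 18.3) at 11 of 32 genes, the integrin and basement membrane list 24 of 166 (14.5%, 9.91 to 20.6) at 17 of 34, the keratins 6 of 39 at 4 of 23, the basal epidermal markers 12 of 87 at 4 of 12, and the cell cycle genes 12 of 98 (12.2%, 7.15 to 20.2) at 5 of 26. All 26 cell cycle genes had a shared region, and 7 of the 12 members were at Myc. The promoter of Gjb2, which encodes connexin 26 (chr14:57103898-57105010, intron), scored 16.9, 14.7, 9.61, 13.7 and 11. A member in an intron of Lamb1, a laminin chain (chr12:31294237-31295115), scored 62.7, 45.1, 16.7, 13.5 and 18, lower from W2 on. Lipid and xenobiotic metabolism had 26 of 128 regions (20.3%) at 17 of 45 genes, and the interferon, antigen presentation and cytokine list 24 of 140 (17.1%) at 12 of 38. In the metabolic list a region of the retinaldehyde dehydrogenase gene Aldh1a1 (chr19:20652995-20654565) scored 67.2, 39.0, 67.1, 25.5 and 41.2, and the promoter of Nqo1, a quinone reductase (chr8:107402864-107403839), 21.2, 20, 14.5, 22.4 and 23.4. In the cytokine list the decoy receptor gene Il1r2 (chr1:40073481-40074182) had 48.2, 40.0, 37.2, 34.2 and 28.8.

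Among the marker lists of skin cell states, the suprabasal list had 9 members of 33 regions (27.3%, 15.1 to 44.2) at 5 of 11 genes, the follicle stem cell list 29 of 107 (27.1%, 19.6 to 36.2) at 8 of 11, and the upper follicle and sebaceous list 12 of 61 (19.7%) at 5 of 12. A region 4885 bp upstream of Krt1, a keratin of differentiating cells (chr15:101855195-101856162), scored 43.7, 46.9, 12.6, 7.27 and 12.7. One upstream of the transglutaminase gene Tgm3 (chr2:129918053-129918772) scored 31.9, 31.7, 15.8, 9.74 and 12.1. Both were high at D0 and W1 and lower in the 3 later lists, without overlap. Promoter peaks for 8 of the 11 suprabasal genes were present in each skin list and for 4 to 6 in each culture list, with summed promoter scores of 109 to 173 and 61.5 to 113, and their part in the members was not tested. Tcf7l2, a WNT effector (chr19:55870634-55871810), and Nfib, an NFI gene of the follicle list (chr4:82593791-82594967), each had 8 members, the leading ones with 18.6, 21.7, 13.4, 11.2 and 14.9 and with 27.3, 20.6, 20.6, 18.3 and 17.4.

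Regions near marker genes of other skin cells were also among the members, though the sort removes several of these cells. The immune list had 6 members of 16 constant skin regions (37.5%, 18.5 to 61.4) at 4 of 12 genes, the fibroblast list 4 of 8 (21.5 to 78.5%) at 2 of 8, the endothelial list 8 of 16 (28 to 72%) at 4 of 7, the melanocyte list 6 of 15 (19.8 to 64.3%) at 4 of 8 and the Merkel cell list 7 of 21 (33.3%, 17.2 to 54.6) at 4 of 7. These intervals lie above the 16.3% of all genes, and each list holds few regions. At promoters, members were present only at H2-Aa, which scored 8.80, 15.3, 7.38, 3.58 and 13.9, at Erg with 6.90, 5.81, 12.3, 11.9 and 8.16, and at the mechanosensitive channel gene Piezo2 with 30.3, 15.7, 35.2, 27.0 and 19. Counting all peaks and not only members, H2-Aa, H2-Ab1, Pdgfra, Erg, Mitf, Dct, Isl1, Sox2 and Piezo2 had a promoter peak in every skin list. Ikzf1, Cd74, Tek and Kdr had one in some skin lists. The other markers of these lists had none in any skin list, among them Ptprc, Cd3e, Col1a1, Dcn, Pecam1, Cdh5, Tyrp1, Mlana and Atoh1. The summed promoter score ranged in skin and in culture from 25.6 to 41.8 and from 14.4 to 75.7 for the immune list, from 13.8 to 23.2 and from 9.06 to 17.0 for fibroblasts, from 5.81 to 23.5 and from 0 to 10.4 for endothelial cells, from 78.7 to 128 and from 48.9 to 102 for melanocytes, and from 49.1 to 83 and from 9.89 to 51.1 for Merkel cells. The part of such cells in the members was not tested.

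The change from D0 to W6 was also counted by gene list, beside 24.0% of all members at least 2-fold lower and 9.42% at least 2-fold higher. Lower were 5 of 9 suprabasal members (55.6%, 26.7 to 81.1), 16 of 47 in the TGF-beta and BMP list (34.0%, 22.2 to 48.3), 9 of 24 in the interferon, antigen presentation and cytokine list (37.5%, 21.2 to 57.3) and 11 of 36 at immediate early and stress genes, 6 of them at Klf4. In the Notch list 2 of 23 were lower (8.70%, 2.42 to 26.8), at AP1 subunits 2 of 20, in the Hedgehog list 3 of 23 and in the follicle stem cell list 4 of 29. None of the 8 endothelial members was lower and 3 were higher, and none of the 7 HOX members changed 2-fold. The intervals of all lists but the suprabasal one cover the 24.0% of all members, and the lists are small.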

How the data were processed

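ATAC-seq reads were, per the study's methods, aligned by the authors to GRCm38 and the replicates of a group merged before MACS2 peak calling with duplicates kept. The submitters' processing notes name Bowtie2 2.2.9, Picard 2.3.0, SAMtools 1.9, MACS2 2.1.1 and deepTools 2.5.4. Each deposited list gives a normalized score per peak, kept by the authors above 3. Fold enrichment (a ratio) and −log10 q were used from the skin lists only. Merging replicates leaves no replicate error, and a region absent from a list may lie just under the threshold.

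Peaks were merged over the 12 lists with Python 3.11.15, pandas 2.3.3 and pysam 0.24.0, and a region took the sum of its peak scores in each list. Fold enrichment and summit were those of the highest-scoring peak. Genes came from GENCODE M21, sequences from GRCm38. Consensus matches of 26 motifs, and of the full NFI palindrome added after seeing the data, were counted in the central 200 bp. Members, motifs and the 28 gene lists were chosen with earlier results of these data known. Named were the 12 members with the highest minimum score, the 6 genes with most members (ties by the sum of lowest scores), up to 4 genes per list, the members and misses nearest the thresholds, the 3 largest rises and falls to W6 and the 6 strongest promoter members. Of these, some are given by name only. The windows printed as sequence, the mentions of Lef1, Boc and Thrb, and the genes of the longest runs were chosen after their values were seen. No tests were made. The scripts recovered the planted regions and matches on simulated data.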

Additional observations from a re-analysis of the deposited data

How the results depend on the processing

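No paired analysis was possible because each peak list used here pools both replicates of a group, and signal by replicate was not analysed here. The number of members, 5911, became 3260 with a minimum score of 5 in the skin lists, 3515 with every list cut to the length of the shortest (49458 peaks) and 2784 with a common −log10 q of 14.5 in the skin lists, and ran from 6002 to 7093 when each list was left out in turn. The promoter share of members minus that of shared regions, -36.8 percentage points, was -32.9 within 5 kb, -39.8 and -41.6 with a minimum score of 5 in the skin lists and in all 12 lists, -39.6 with equal list lengths, -41.5 with the common q, -34.8 without the 3 culture lists whose peak names record fragments (AFOS, SOX9 with AFOS, SOX9 with ARID1a), and -37.5 to -33.9 leaving out each list.

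For all regions, NFI differed by 16.1 points, 0.283 over full regions, 12.8 for distal regions with or without matching GC bands, 17.6 with the common q, and 15.4 to 16.4 leaving out each list. GATA differed by 7.14 points, 4.72 over full regions, 4.97 distal, 5.43 in equal score bands, 4.04 distal in equal GC bands, 8.32 with the common q, and 6.37 to 8.11 leaving out each list. AP1 differed by -0.0756 points for all regions and had no steady sign there: -9.51 over full regions, -9.24 distal, -3.26 in equal score bands, -9.72 distal in equal GC bands, 1.00 and 1.97 with a minimum score of 5 in the skin lists and in all 12, 1.70 with equal list lengths, -1.82 without the 3 fragment lists, and -2.54 to 0.828 leaving out each list, lowest without SOX9 with AFOS. In distal regions the 19 changes of lists or merging gave 12 to 13.2 points for NFI, 4.22 to 5.87 for GATA and -12 to -8.14 for AP1. The median log2 ratio of members at W6 was -0.25 by score and -0.41 by fold enrichment. The epidermal transcription factors with a member went from 15 to 9 by gene body and 10 kb, and over the 28 gene lists 13 counts moved by more than 1.5 times and 15 did not. Besides the lists given in the text these were follicle stem cell (8 to 5), upper follicle (5 to 3), Merkel (4 to 2), fibroblast (2 to 1), endothelial (4 to 2) and TGF-beta and BMP (17 to 10). The alternatives with GC bands, the distal shares under changed lists, the matches per kb and the bands of mean score were chosen after seeing the data. The causes of these shifts were not tested. Depth is not given, so absence from a culture list cannot be told apart from a shallow library.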
